A study of Homo sapiens with 27 samples.

Results

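The platelet-derived growth factor (PDGF) system was followed in EA.hy926 cells, a human hybrid line that joins an umbilical vein endothelial cell with the lung carcinoma line A549. The set holds 6 genes, the ligand genes PDGFA, PDGFB, PDGFC and PDGFD and the receptor genes PDGFRA and PDGFRB, out of 60604 gene entries. They were chosen by symbol, through the Ensembl identifiers of the count table, and not by a cut on a measured value. Earlier results of these data were known when the set was chosen. RNA sequencing covered 27 libraries in 7 groups, with 4 libraries in each group except 1 that had 3. Control cells stayed alone. The other groups were exposed for 48 h to mesenchymal stromal cells (MSCs) of the adipose line ASC52telo, which is immortalised with telomerase, or to what those cells had made. Exposure was to extracellular matrix (ECM) left after 5 min in 20 mM NH4OH with 0.5% Triton X-100 had stripped off the MSCs, to conditioned medium (CM) mixed in equal parts with endothelial medium, or to the MSCs themselves in equal numbers. Each kind of exposure used young MSCs, which were untreated, or senescent MSCs, which had been given the DNA crosslinker mitomycin C at 1.5 µg/mL for 18 h and kept for 10 days afterwards. Both lines are wild type by their labels, and each stands for a single immortal line. The labels name a single sequencing run. They leave unsaid whether libraries of a group came from separate cultures, so the p-values rest on differences among libraries that may be technical. They also name no step that parted the 2 cell types after co-culture. The extraction text speaks of RNA from MSCs, whereas the cell type is labelled endothelial.

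PDGFs are dimers that bind receptor tyrosine kinases at the cell surface. PDGF-B, made by endothelial cells and held near them by heparan sulfate, draws in the PDGFRB-bearing pericytes and smooth muscle cells that cover a growing vessel. PDGFA and PDGFC chains act mainly through PDGFRA, a receptor of fibroblasts and mesenchymal progenitors, while PDGFC and PDGFD are secreted with a CUB domain that proteases must cut off before the factor can act. Endothelial cells are thus chiefly a source of ligand, and stromal cells chiefly carry the receptors.

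In GENCODE 29 on GRCh38, PDGFA (ENSG00000197461.13) lies at chr7:497258-520296, PDGFB (ENSG00000100311.17) at chr22:39223359-39244751, PDGFC (ENSG00000145431.11) at chr4:156760454-156971394 and PDGFD (ENSG00000170962.13) at chr11:103907186-104164379, all on the minus strand. PDGFRA (ENSG00000134853.12) lies at chr4:54229097-54298247 on the plus strand and PDGFRB (ENSG00000113721.14) at chr5:150113837-150155872 on the minus strand. Reads could be told apart between members: over all pairs of members, the longest run of bases that protein-coding transcripts shared exactly was 23, between PDGFRA and PDGFRB, and it was 16 between PDGFA and PDGFB. No annotated gene overlapping a member reached more than 0.0147 CPM, the counts scaled to library size, in any library. PDGFRA is overlapped on its own strand by a protein-coding gene that was at 0 CPM throughout. How reads in shared exons were counted is not known here. These low values therefore cannot show that no reads of a member were lost.

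RefSeq (GRCh38.p14) gave promoter windows for 4 of the 6 members, PDGFA, PDGFD, PDGFRA and PDGFRB. The 250 bases upstream of a start site are printed for PDGFA, whose promoter is known for its GC-rich element bound by SP1 and EGR1, because EGR1 was among the genes that changed most below, and for the pair of receptor genes, which changed together in co-culture. Capitals mark every match, on either strand, to the GC box GGGCGG or to the EGR1 motif GCGGGGGCG; the 2 motifs can overlap, and a match only says that the letters are there. The PDGFA window is chr7:519847-520096 on the minus strand, the PDGFRA window chr4:54229043-54229292 on the plus strand and the PDGFRB window chr5:150155846-150156095 on the minus strand.
PDGFA: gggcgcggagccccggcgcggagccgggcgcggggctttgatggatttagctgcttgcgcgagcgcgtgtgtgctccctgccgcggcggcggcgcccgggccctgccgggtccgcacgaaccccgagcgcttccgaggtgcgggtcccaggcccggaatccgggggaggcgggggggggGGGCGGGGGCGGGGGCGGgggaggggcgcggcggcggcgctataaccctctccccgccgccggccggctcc
PDGFRA: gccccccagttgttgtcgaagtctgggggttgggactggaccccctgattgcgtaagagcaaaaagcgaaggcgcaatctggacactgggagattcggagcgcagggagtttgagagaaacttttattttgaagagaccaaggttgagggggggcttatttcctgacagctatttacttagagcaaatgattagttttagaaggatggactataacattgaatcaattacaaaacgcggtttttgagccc
PDGFRB: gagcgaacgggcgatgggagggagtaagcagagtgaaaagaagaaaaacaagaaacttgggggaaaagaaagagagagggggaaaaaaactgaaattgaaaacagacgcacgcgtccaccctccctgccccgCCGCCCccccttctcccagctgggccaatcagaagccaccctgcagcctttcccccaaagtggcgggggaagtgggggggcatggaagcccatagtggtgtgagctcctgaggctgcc
The PDGFA window held 3 GC boxes and 2 EGR1 matches, with 81.6% G and C. The PDGFRB window held 1 GC box and the PDGFRA window none, at 58.4 and 46.8% G and C, and neither held the EGR1 motif. RefSeq lists other starts for PDGFA and PDGFRA; of the 4 windows of PDGFA, 1 more held EGR1 matches, at chr7:520227-520476, also 2, and the other PDGFRA window, chr4:54233710-54233959, held 2 GC boxes and no EGR1 match at 64.0% G and C. Among 35116 windows of the same length, 42.6% held a GC box and 4.72% the EGR1 motif.

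Libraries held 66320519 to 111512357 counts. Levels below are CPM scaled by TMM over all libraries, and, unless replicate 1 is named, results are for replicates 2 to 4, 3 libraries in each group (n = 3). Replicate 1 is shown apart because stromal RNA set it off. Of 6 defining stromal genes (COL1A1, COL1A2, COL3A1, LUM, DCN, PRRX1), the summed level was 3338 to 7998 CPM in replicate 1 of the control, ECM and CM groups, against 12.8 to 27.2 CPM in their other 15 libraries, and TERT, carried by the MSC line, was at 633.5 to 1274 CPM there. No defining gene was at 0 in any library. Young co-culture replicate 1 stood apart otherwise, with a TMM factor of 0.459. Endothelial markers were expressed in all groups. PECAM1, an endothelial adhesion receptor, had group means from 473 to 1244 CPM, and CDH5, the VE-cadherin gene, from 223 to 711 CPM. Of a list of 20 endothelial genes, up to 2 were at 0 in a library.

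PDGFB varied most among the ligand genes: its highest group mean was 8.60 times its lowest. In control cells it was at 14.3, 6.98 and 12.9 CPM in replicates 2, 3 and 4. In young co-culture it was at 62.3, 44.3 and 52.8 CPM, and in senescent co-culture at 27.9, 30.7 and 35.6 CPM. Every co-culture library lay above every control library, and every young co-culture library above every senescent one. The mean went from 11.4 ± 3.88 (SD, n = 3) in control to 53.1 ± 8.99 in young and 31.4 ± 3.91 in senescent co-culture. PDGFB rose by 2.23 ± 0.25 on the log2 scale (SE) with young MSCs, 4.68-fold (adjusted p = 0.000262), and by 1.47 ± 0.24 with senescent MSCs, 2.77-fold (adjusted p = 0.0032). All adjusted p-values here are from edgeR's quasi-likelihood test on the deposited counts, 2-sided, with Benjamini-Hochberg adjustment over all genes and a threshold of 0.05. Both comparisons use the same control libraries. Young co-culture replicate 1 held only 118 PDGFB counts, or 3.24 CPM, and with all replicates in the fit neither rise passed the threshold, at 1.79 (adjusted p = 0.338) and 1.43 (adjusted p = 0.838).

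The test called 9.68% of genes for young co-culture against control and 8.05% for senescent co-culture against control. Of the 6 members, 3 passed in each, PDGFB, PDGFRA and PDGFRB, all of them higher. The median log2 fold change of the members was 0.85 and 0.95, against 0.01 and 0.02 over all genes tested. Scaling the libraries to the summed level of endothelial markers, which was 3207 to 4482 CPM in control, 5921 to 6912 CPM in young and 6756 to 7057 CPM in senescent co-culture, moved the median of all genes to −0.73 and −0.82. It gave 379 higher and 10614 lower genes with young MSCs, against 1190 and 526 with TMM, and 394 and 12355 with senescent MSCs, against 1032 and 396. PDGFB still rose under it, by 1.53 (adjusted p = 0.000427) and 0.69 (adjusted p = 0.00684), which is 2.26 and 1.51 above the median gene.

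Group means of PDGFB were above control in conditioned medium and below it on matrix. In young CM it was at 17.2, 13.1 and 24.9 CPM and in senescent CM at 27.0, 20.4 and 42.7 CPM. On young ECM it was at 7.40, 4.67 and 6.46 CPM and on senescent ECM at 7.72, 7.23 and 4.38 CPM. The senescent CM libraries all lay above control, the young CM and ECM libraries overlapped control, and no ECM library reached a CM library. Against young CM, PDGFB fell on young ECM by 1.60 ± 0.34 on the log2 scale (adjusted p = 0.0153). Against senescent CM it fell on senescent ECM by 2.23 ± 0.34 (adjusted p = 0.00106). The first call was lost without young ECM replicate 4 (adjusted p = 0.0641), without young CM replicate 4 (adjusted p = 0.0527) and with all replicates in the fit (adjusted p = 0.202); the senescent call held with all replicates (−1.94, adjusted p = 0.0181) and without each of its libraries in turn (adjusted p at most 0.00866). The call rates behind them were 3.35% of genes for young ECM against young CM and 4.9% for senescent ECM against senescent CM. In the main edgeR fits (low counts filtered, no replicate block), PDGFB was the only member past the threshold in each. DESeq2 called 2 members between senescent ECM and senescent CM. The senescent call rate was for 882 genes, or 1428 under a block for the replicate number, which also called PDGFA.

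Against control alone, no member passed the threshold in any ECM or CM group in the main edgeR fit. On young ECM 0.649% of genes were called (117, or 321 under a block for the replicate number) and on senescent ECM 0.3%. At an unadjusted p under 0.05 were 2 and 1 of the members, beside 1535 and 1224 of all 18015 genes. DESeq2 called 0 members in either, and edgeR with no filter on low counts called 1 member in each. PDGFB had log2 fold changes of −0.89 ± 0.33 (adjusted p = 0.383) and −0.83 ± 0.33 (adjusted p = 0.571) there. In young CM the call rate was 0% (0 genes by edgeR, 846 at an unadjusted p under 0.05, 34 by DESeq2, and 6 under a block for the replicate number), and PDGFB stood at 0.71 ± 0.33 (adjusted p = 0.86), the member at an unadjusted p under 0.05. In senescent CM the call rate was 0.505%, and PDGFB stood at 1.40 ± 0.33 (adjusted p = 0.0857), 2.64-fold. DESeq2 called it (1.41, adjusted p = 0.00382), and it was the 1 member that DESeq2 called there. With no filter on low counts, edgeR also called 1 member in senescent CM. Replicate 1 did not share the CM pattern: PDGFB was at 11.4 CPM in control, 11.4 CPM in young CM and 10.5 CPM in senescent CM, and at 8.45 and 6.89 CPM on young and senescent ECM.

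Ordered by mean, PDGFB was highest in young co-culture, then in senescent co-culture (31.4 CPM), senescent CM (30.0 ± 11.5 CPM), young CM (18.4 ± 5.99 CPM), control (11.4 CPM), senescent ECM (6.44 ± 1.81 CPM) and young ECM (6.18 ± 1.39 CPM). Only young co-culture was separated from its neighbour in that order; each of the other neighbouring groups overlapped. A list of 7 epithelial markers, measured because the hybrid has a carcinoma parent, was also lower on matrix and higher in CM and co-culture than in control. Its summed level was 1013 to 1309 CPM on young and 1143 to 1206 CPM on senescent ECM, 1990 to 2431 CPM in control, 3336 to 4622 CPM in young and 4230 to 5171 CPM in senescent CM, and 3862 to 4489 CPM in young and 3152 to 3623 CPM in senescent co-culture. The list did not follow PDGFB throughout. Senescent CM reached above young co-culture, where PDGFB was highest, and young co-culture replicate 1 had 18070 CPM of the list but 3.24 CPM of PDGFB. At most 1 of the 7 genes was at 0 in a library, and their part in the PDGFB values was not tested.

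**Figure D1:**
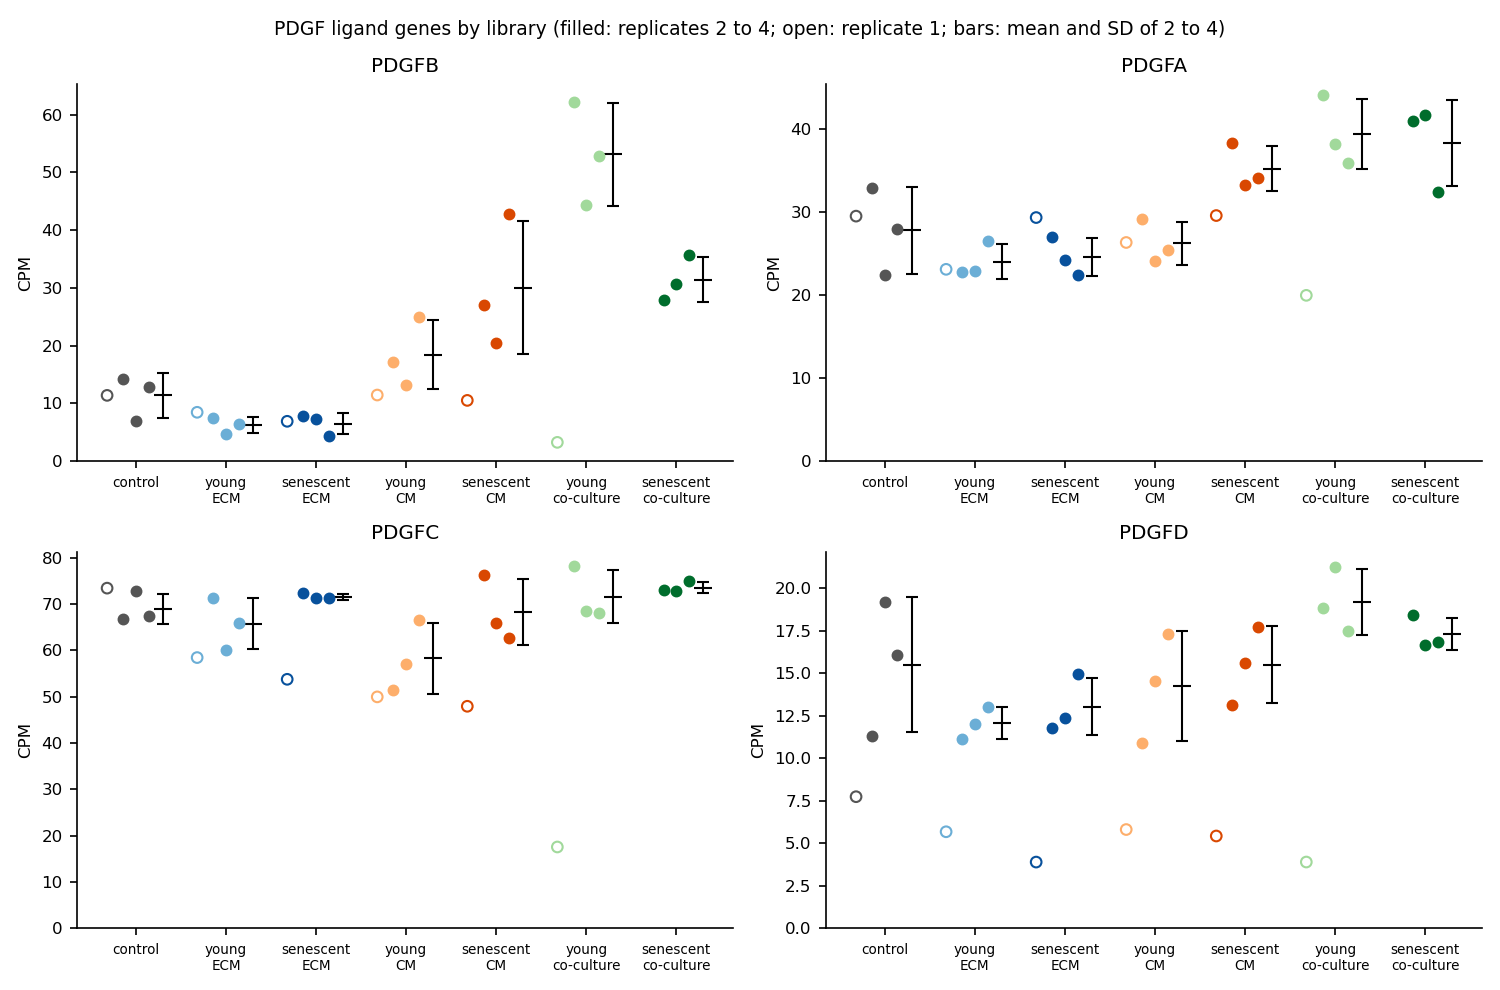
Level of the 4 ligand genes in CPM (linear axis from 0) in each library of the 7 groups; filled points are replicates 2 to 4, open points replicate 1, and bars the mean and SD of replicates 2 to 4. PDGFB spanned 4.38 to 62.3 CPM over the filled points, while PDGFC stayed between 51.4 and 78.2 CPM.

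The mean of PDGFB was higher with senescent than with young MSCs in CM and lower in co-culture. No test of these differences passed, so their signs are not established. From young to senescent, PDGFB went from 6.18 to 6.44 CPM on ECM, from 18.4 to 30.0 CPM in CM and from 53.1 to 31.4 CPM in co-culture. The co-culture difference was −0.76 ± 0.24 (adjusted p = 0.476) with no overlap between the libraries. Tested as a difference of differences over all 7 groups, the senescence effect in co-culture minus that in CM was −1.46 ± 0.43 for PDGFB (unadjusted p = 0.00276, adjusted p = 0.38). The co-culture effect minus the ECM effect was −0.81 ± 0.43 (adjusted p = 1) and the CM effect minus the ECM effect 0.65 ± 0.43 (adjusted p = 1.00). Those tests called 0.103, 0.0487 and 0.00541% of genes, in that order, and 0 members each. Without 1 library the first called between 11 genes (young co-culture replicate 4 left out) and 42 genes (young CM replicate 4 left out), the next between 1 (senescent ECM replicate 4 or senescent co-culture replicate 2 left out) and 11, and the last 0 or 1, with no member past the threshold in any of them.

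Between senescent and young MSCs within an exposure, 0 of the 6 members passed in the main edgeR fits. On ECM 0% of genes passed (0 by edgeR, 141 at an unadjusted p under 0.05, 0 by DESeq2), in CM 0.0167% and in co-culture 0.395%. Members at an unadjusted p under 0.05 numbered 0, 1 and 2, beside 141, 975 and 992 of all genes tested. DESeq2 called 0, 0 and 1 of the members, the last being PDGFRB, beside 0, 46 and 151 of all genes. With no filter on low counts, edgeR called 1 member in co-culture.

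PDGFA encodes the A chain, which is made by many cell types. Its control libraries were at 32.8, 22.4 and 28.0 CPM, young co-culture at 44.1, 38.1 and 35.9 CPM and senescent co-culture at 40.9, 41.7 and 32.3 CPM. Senescent CM stood at 38.3, 33.2 and 34.1 CPM, above all of young CM (29.1, 24.1 and 25.4 CPM) and all of senescent ECM (26.9, 24.2 and 22.4 CPM). No comparison passed the threshold for PDGFA in the main edgeR fits. The nearest was senescent ECM against senescent CM, −0.53 ± 0.16 (adjusted p = 0.0692), which passed under a block for the replicate number (adjusted p = 0.0201) and with DESeq2 (adjusted p = 0.0275). PDGFA stood at 0.51 ± 0.17 (adjusted p = 0.0883) in young and 0.47 ± 0.17 (adjusted p = 0.129) in senescent co-culture against control, and both passed without control replicate 2 (0.65, adjusted p = 0.0293, and 0.62, adjusted p = 0.0373). Under endothelial marker scaling the signs turned, to −0.21 and −0.33, though both lay above the median gene, by 0.52 and 0.49. Senescent against young CM gave 0.41 ± 0.16 (adjusted p = 0.765), and senescent CM against control 0.35 ± 0.16 (adjusted p = 0.754).

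PDGFC and PDGFD, the chains that need proteolytic activation, varied less than PDGFB. Over 21 libraries PDGFC ranged from 51.4 to 78.2 CPM with a median of 68.5 CPM, and its group means differed by at most 1.26-fold. PDGFD ranged from 10.9 to 21.3 CPM with a median of 15.6 CPM, and its group means differed by at most 1.59-fold. That was close to PDGFA, whose group means differed by at most 1.64-fold. PDGFC was lowest in young CM, at 51.4, 57.0 and 66.5 CPM, all below the 3 control libraries, the lowest of which was at 66.8 CPM. The difference was −0.22 ± 0.13 on the log2 scale (adjusted p = 0.86). PDGFD was at 11.3, 19.2 and 16.1 CPM in control, and its group means ran from 12.1 ± 0.94 CPM on young ECM to 19.2 ± 1.94 CPM in young co-culture. In the main edgeR fits, neither gene passed the threshold in any of the 11 comparisons. Against control, PDGFC was at 0.06 ± 0.12 and 0.10 ± 0.12 and PDGFD at 0.32 ± 0.18 and 0.17 ± 0.18 on the log2 scale in young and senescent co-culture. Endothelial marker scaling turned these to −0.70 and −0.75 for PDGFC and −0.46 and −0.71 for PDGFD. It called PDGFC lower in both and PDGFD lower in senescent co-culture, but relative to the median gene the values stayed at 0.03, 0.07, 0.27 and 0.11. In replicate 1 of the control, ECM and CM groups PDGFD was at 3.90 to 7.75 CPM, below each of the other 15 libraries of those groups, and PDGFC at 47.9 to 73.4 CPM.

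Per exon length, which allows genes to be compared, PDGFC was the leading ligand in control cells. Its level was 12.3 ± 0.58 CPM per kilobase of exon (RPKM) there, against 6.68 ± 1.25 for PDGFA, 3.64 ± 0.93 for PDGFD and 3.03 ± 1.03 for PDGFB. PDGFB made up 11.7 ± 3.70% of the summed per-length level of the 4 ligands in control. That share was 34.4 ± 3.09% in young co-culture, 24.0 ± 3.04% in senescent co-culture, 24.3 ± 7.24% in senescent CM and 19.3 ± 3.93% in young CM, and it was 7.41 ± 1.27% on young and 7.27 ± 1.87% on senescent ECM. PDGFC's share was 48.1 ± 3.86% in control and 31.3 ± 0.70% in young co-culture, where the ranges of PDGFB (30.8 to 36.3%) and PDGFC (30.7 to 32.1%) overlapped. PDGFA kept group mean shares of 23.2 to 26.5%. The shares follow from the levels above and carry no test of their own.

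**Figure D2:**
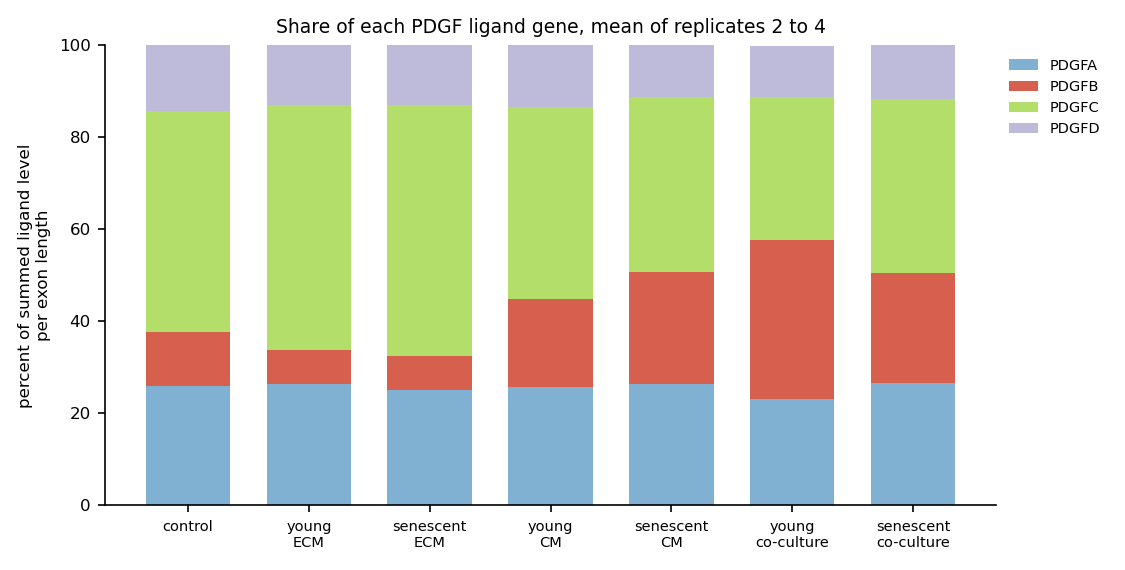
Mean share of each ligand gene in the summed per-length level of the 4 ligand genes, in percent (linear axis from 0 to 100), for the 7 groups, replicates 2 to 4. The PDGFB part is 11.7% in control, about 7% on both matrices and 34.4% in young co-culture.

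The receptor genes were hardly expressed in endothelial cells kept without MSCs. Over the 15 libraries of the control, ECM and CM groups, PDGFRA ranged from 0.205 to 0.71 CPM and PDGFRB from 0.546 to 1.36 CPM. Per length both were far below every ligand gene. The highest of those 15 libraries had 0.0729 RPKM of PDGFRA and 0.191 RPKM of PDGFRB, while the lowest PDGFB value was 1.16 RPKM. Any PDGFRA reads lost to the overlapping gene mentioned above are missing from this comparison.

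Co-culture libraries held more of both. PDGFRA was at 0.433, 0.402 and 0.468 CPM in control, at 0.782, 1.26 and 0.889 CPM in young co-culture and at 1.45, 1.11 and 0.90 CPM in senescent co-culture. All 6 co-culture libraries lay above control, and the 2 co-culture groups overlapped. PDGFRA rose by 1.18 ± 0.26 on the log2 scale with young MSCs (2.27-fold, adjusted p = 0.0152) and by 1.42 ± 0.26 with senescent MSCs (2.67-fold, adjusted p = 0.00554). The rise with young MSCs did not pass without young co-culture replicate 3 (0.95, adjusted p = 0.0583) or without control replicate 4 (1.21, adjusted p = 0.0501). It also missed in the fit over all 7 groups (1.15, adjusted p = 0.0604), and under endothelial marker scaling the values were 0.47 (adjusted p = 0.188) and 0.60 (adjusted p = 0.0954), or 1.20 and 1.42 above the median gene. These levels rest on 64 to 149 counts per co-culture library and 39 to 48 per control library.

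PDGFRB separated the groups more fully. It was at 0.623, 0.546 and 0.755 CPM in control, at 1.51, 1.59 and 1.70 CPM in young co-culture and at 3.07, 2.86 and 3.08 CPM in senescent co-culture, with no overlap between any 2 of the 3. PDGFRB rose by 1.33 ± 0.19 with young MSCs (2.51-fold, adjusted p = 0.00103) and by 2.24 ± 0.19 with senescent MSCs (4.71-fold, adjusted p = 3.1e-05), and both rises passed under endothelial marker scaling (0.61, adjusted p = 0.0241, and 1.42, adjusted p = 0.000689). Between senescent and young co-culture the difference was 0.91 ± 0.18 (adjusted p = 0.0615), while DESeq2 called it (0.90, adjusted p = 0.000485). The senescence effect on PDGFRB in co-culture minus that on ECM was 1.15 ± 0.30 (unadjusted p = 0.00105, adjusted p = 0.513). On young ECM PDGFRB was at 1.05, 0.759 and 1.36 CPM, all above control, at 0.72 ± 0.25 (adjusted p = 0.329). Against young CM it stood at 0.59 ± 0.25 (adjusted p = 0.246), or 0.84 (adjusted p = 0.0457) without young ECM replicate 3.

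**Figure D3:**
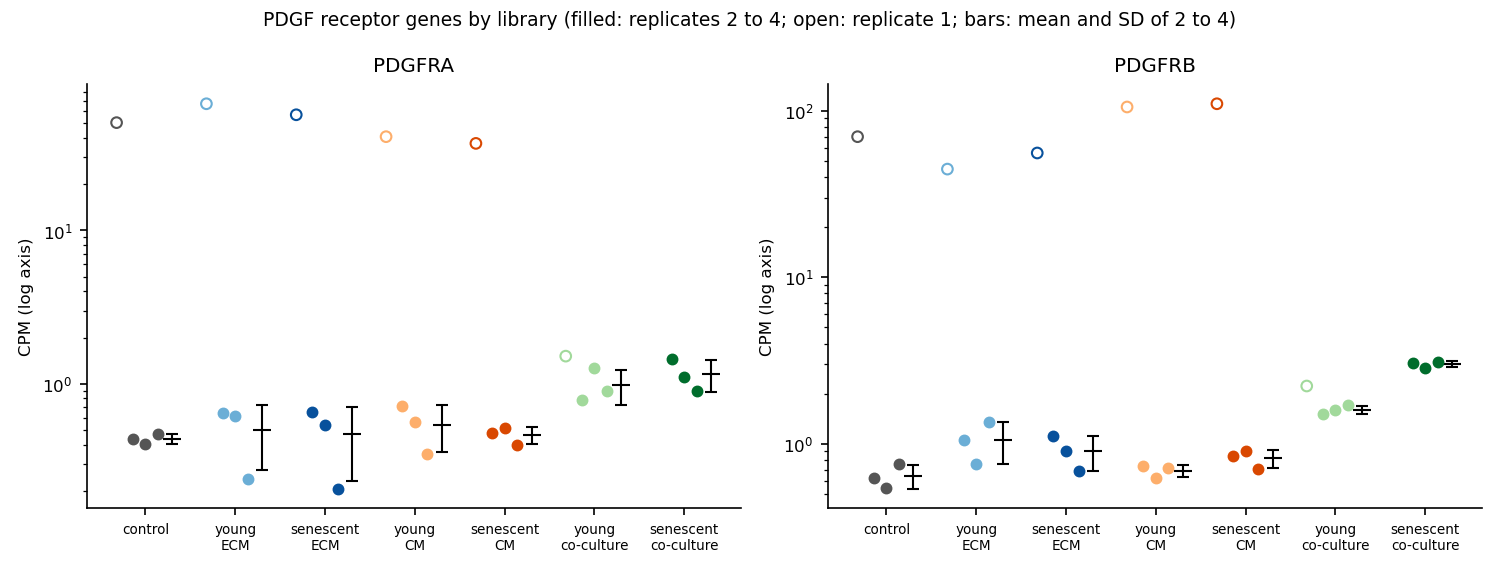
Level of the receptor genes in CPM (log axis) in each library; filled points are replicates 2 to 4, open points replicate 1, and bars the mean and SD of replicates 2 to 4. Replicate 1 of the control, ECM and CM groups sits at 37.1 to 110.2 CPM, and all filled points at 3.08 CPM or below.

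Markers of stromal cells moved with the receptors. The summed level of the 6 defining stromal genes was 15.1 to 18.1 CPM in control, 86.1 to 134.5 CPM in young co-culture and 248 to 341 CPM in senescent co-culture. COL1A1, a chain of collagen I, went from 5.83 ± 0.34 to 60.1 ± 12.3 and 140.1 ± 26.1 CPM. NOTCH3, a Notch receptor of mural cells, went from 0.142 ± 0.02 to 0.683 ± 0.15 and 3.33 ± 0.37 CPM. RGS5 and ACTA2, from the same mural list, did not follow that order. RGS5 was at 90.6 ± 30.4, 144 ± 11.3 and 119 ± 5.01 CPM, and ACTA2 at 13.2 ± 2.57, 13.5 ± 1.95 and 11.4 ± 1.30 CPM. TERT was at 1.65 ± 0.19, 6.77 ± 1.06 and 3.78 ± 0.75 CPM, higher with young than with senescent MSCs, the opposite order to PDGFRB. The wider list of 20 stromal genes, some of which endothelial cells also express, summed to 1727 to 2748 CPM in control, 4009 to 5171 CPM in young and 4513 to 4903 CPM in senescent co-culture, with at most 1 gene at 0 in a library. Of 11 mural genes, 2 or 3 were at 0 in each of these libraries, and their sums were 103 to 149.7, 189 to 217 and 159 to 178.5 CPM. Of 8 haematopoietic and platelet genes, the sum stayed under 2 CPM in all of them. The part of MSC RNA in the receptor values was not tested, and since the labels do not state a separation step, receptor RNA from MSCs and from endothelial cells in co-culture cannot be told apart; in bulk RNA, fewer MSCs and less RNA per MSC cannot be told apart either.

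Where stromal RNA was abundant, so were the receptors. In replicate 1 of the control, ECM and CM groups PDGFRA was at 50.6 CPM in control, 67.3 and 57.0 CPM on young and senescent ECM, and 41.0 and 37.1 CPM in young and senescent CM. PDGFRB was at 69.9, 44.7, 55.8, 105.4 and 110.2 CPM in the same order. So PDGFRA was highest in the ECM libraries and PDGFRB in the CM libraries, each with 1 library per group and no test. Young co-culture replicate 1 had 1.51 CPM of PDGFRA and 2.23 CPM of PDGFRB, with a stromal sum of 71.7 CPM. Set against the summed defining stromal genes, PDGFRB amounted to 0.939 to 1.54% in those 5 libraries, 1.13 to 1.98% in young and 0.90 to 1.24% in senescent co-culture. In the other 15 libraries without MSCs it was 2.79 to 10.5%. PDGFRA amounted to 0.463 to 2.02%, 0.581 to 1.04%, 0.363 to 0.425% and 1.60 to 3.27% in the same order. Among those 15 libraries, the 2 with the least PDGFRA, replicate 4 of senescent and of young ECM (0.205 and 0.238 CPM), also had the lowest stromal sums (12.8 and 13.0 CPM). PDGFRB did not share this: that young ECM library had the highest PDGFRB of the 15, 1.36 CPM. With all replicates in the fit, control replicate 1 among them, the differences between young or senescent co-culture and control were −3.64 and −3.56 for PDGFRA and −3.44 and −2.65 for PDGFRB, none past the threshold.

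**Figure D4:**
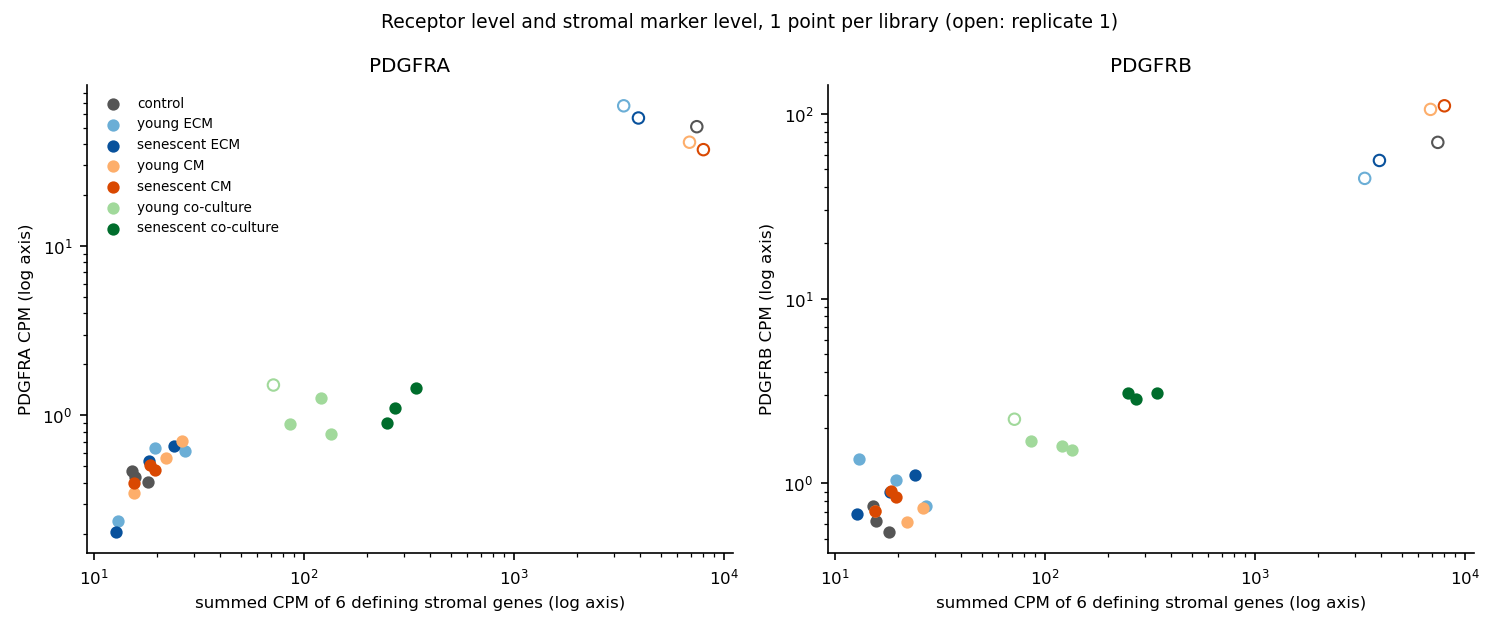
PDGFRA and PDGFRB in CPM against the summed CPM of 6 defining stromal genes (both log axes), 1 point per library; open points are replicate 1. The 15 filled points without MSCs lie at 12.8 to 27.2 CPM of stromal genes, senescent co-culture at 248 to 341 CPM, and the 5 open points at upper right at 3338 to 7998 CPM.

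**Figure D5:**
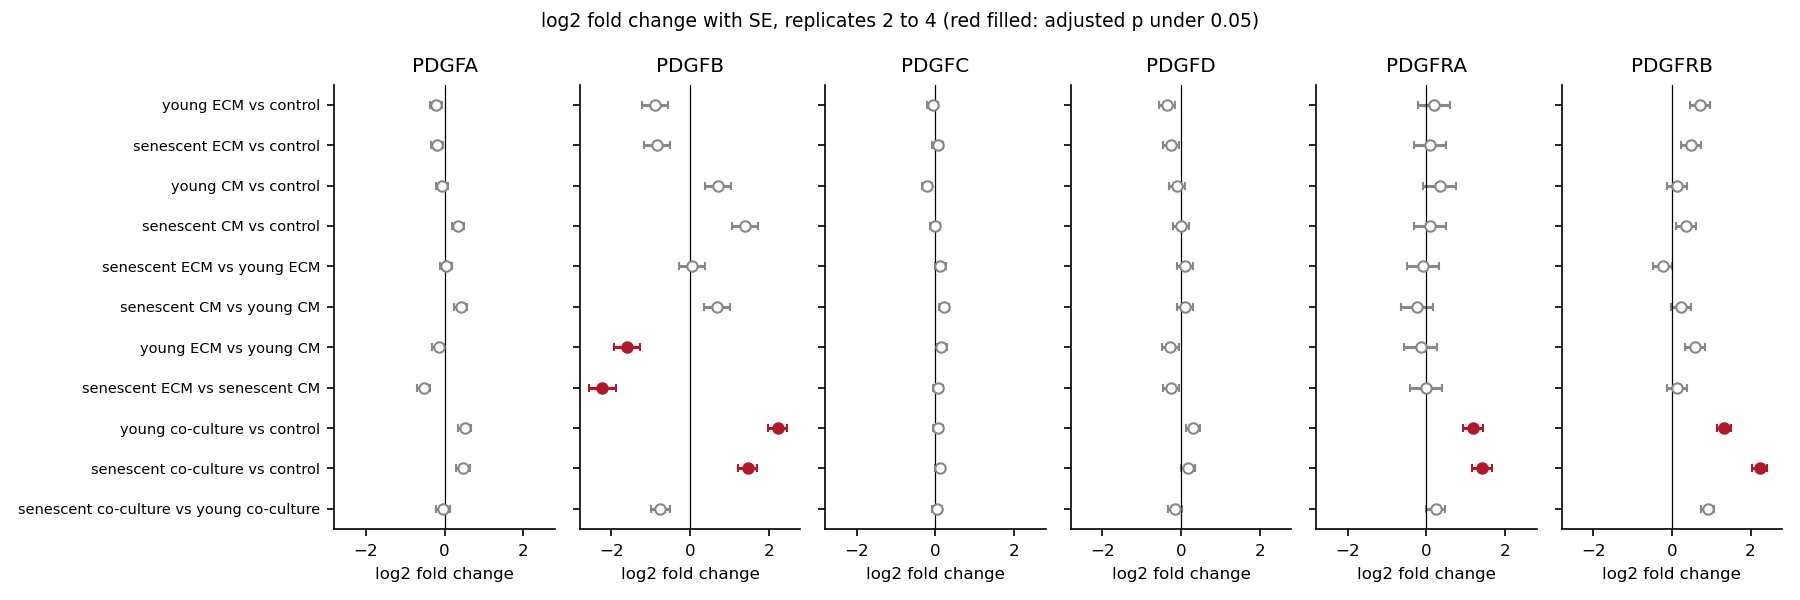
The log2 fold change of each member with its SE in the 11 comparisons, replicates 2 to 4; red filled points passed an adjusted p of 0.05. The 8 red points are PDGFB in 4 comparisons and each receptor in the 2 comparisons of co-culture with control.

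In all, 8 of the 66 pairs of a member and a comparison passed in the main edgeR fits, 4 of them for PDGFB. A block for the replicate number added PDGFA between senescent ECM and senescent CM, and PDGFB in senescent CM against control. The 45 pairs at an unadjusted p of 0.05 or more had log2 fold changes between −0.36 and 0.69. Several comparisons share control or exposure libraries, so their values are not independent of each other.

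The wider PDGF pathway was read from a list of 66 genes in 5 roles, of which 63 were tested. In young co-culture 16 rose and 2 fell, and in senescent co-culture 15 rose and 3 fell, where 9.68 and 8.05% of all genes were called. The list's median log2 fold change was 0.10 and 0.13, against 0.01 and 0.02 over all genes. On young ECM 4 rose and on senescent ECM 2 rose, with none lower, where 0.649 and 0.3% of all genes were called. In young and senescent CM 0 passed in the main edgeR fit. There 3 and 7 were at an unadjusted p under 0.05, beside 846 and 1145 of all 18015 genes. DESeq2 called 0 and 2 of the list, beside 34 and 261 of all genes. Between senescent and young MSCs 0 passed on ECM, in CM or in co-culture in the main edgeR fits, and DESeq2 called 0 in each. At an unadjusted p under 0.05 were 1, 8 and 0 of the list, beside 141, 975 and 992 of all genes. With all replicates in the fit, 0 passed in either co-culture or on either ECM against control. Leaving out 1 library gave 10 to 23 listed genes in young and 9 to 20 in senescent co-culture, lowest without replicate 4 of the first and replicate 3 of the other. On young ECM it gave 0 to 5, with 0 without young ECM replicate 2, control replicate 3 or control replicate 4, and on senescent ECM 0 or 1 whichever library was left out. Under endothelial marker scaling 3 rose and 34 fell with young MSCs, and 4 rose and 38 fell with senescent MSCs. Most of the co-culture rises named below were therefore not called under that scaling. As for the receptors, RNA of a listed gene from MSCs and from endothelial cells in co-culture cannot be told apart. Of the 46 calls named below, 20 also passed without each library in turn, and the largest adjusted p reached by the others is given with each role.

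Genes that process or hold the ligands changed mostly upward in co-culture under TMM scaling. HSPG2, the heparan sulfate proteoglycan perlecan of basement membranes, rose from 318 ± 164 CPM by 1.76 ± 0.38 with young MSCs (adjusted p = 0.0149) and by 1.90 ± 0.39 with senescent MSCs (adjusted p = 0.00986). PCSK5, a proprotein convertase, rose by 0.94 ± 0.24 and 1.12 ± 0.24 from 0.735 ± 0.17 CPM. FURIN, the convertase that cleaves PDGF-A and PDGF-B precursors, rose by 1.28 ± 0.23 with senescent MSCs to 387 ± 29.9 CPM (adjusted p = 0.00527). ST14, the protease matriptase, fell by 1.31 ± 0.29 with young MSCs but was scarce, at 0.429 CPM in control. In this role 5 genes rose and 1 fell with young MSCs, and 5 rose and 2 fell with senescent MSCs, of 9 tested. PLAT, the plasminogen activator that cuts the CUB domain from PDGF-C, was higher on young ECM than in young CM, by 1.25 ± 0.31 (adjusted p = 0.0386). SPARC, a matrix protein that binds PDGF-B, was lower on senescent ECM than in senescent CM by 0.74 on the log2 scale, at 259 ± 20.4 against 429 ± 4.83 CPM (adjusted p = 0.00647). Leaving out 1 library took the adjusted p to at most 0.0668 for HSPG2, 0.118 for PCSK5 and 0.0677 for ST14 with young MSCs, to 0.0701 for PCSK5 with senescent MSCs and to 0.179 for PLAT; FURIN and SPARC kept their calls.

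Among the 7 receptor partners, CSPG4, the NG2 proteoglycan of pericytes that binds PDGF-A, rose by 2.08 ± 0.36 and 2.12 ± 0.36 in young and senescent co-culture, to 0.553 ± 0.08 and 0.566 ± 0.19 CPM. It stood lower in co-culture than in control with all replicates in the fit (−5.35 and −5.28, neither past the threshold). S1PR1, the sphingosine 1-phosphate receptor of endothelium, rose in both co-cultures (1.01 ± 0.12 and 0.97 ± 0.12) and on both matrices, by 1.09 ± 0.19 on young ECM (adjusted p = 0.0138) and 0.99 ± 0.19 on senescent ECM (adjusted p = 0.038). Set against CM, S1PR1 was higher on ECM by 1.22 ± 0.19 for young MSCs (adjusted p = 0.00188) and 0.69 ± 0.19 for senescent MSCs (adjusted p = 0.0448). NRP2, a co-receptor of endothelial cells, rose by 1.04 ± 0.24 and 0.92 ± 0.24 in the co-cultures. PDGFRL, a receptor-like gene, was lower on young ECM than in young CM by 0.90 on the log2 scale (8.05 ± 1.34 against 14.8 ± 2.87 CPM, adjusted p = 0.0211). CSPG4 and S1PR1 kept their co-culture calls without each library in turn, as did S1PR1 between young ECM and young CM. For S1PR1 on young and senescent ECM against control the adjusted p reached 0.0945 and 0.258, with the call lost in 4 and 5 of 6 fits. Between senescent ECM and senescent CM it reached 0.242 for S1PR1, with the call lost in 4 of 6. The adjusted p reached 0.0889 and 0.155 for NRP2 and 0.128 for PDGFRL.

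Of 22 adaptors and effectors, 3 rose in young and 2 in senescent co-culture and none fell. GAB1, a docking protein downstream of receptor kinases, rose by 1.02 ± 0.19 and 0.84 ± 0.19. STAT3, a transcription factor activated by such receptors, rose by 0.64 ± 0.14 and 0.63 ± 0.14, but stood at −0.09 and −0.19 under endothelial marker scaling. RASA1, a Ras GTPase-activating protein that docks on PDGFRB, rose by 0.58 ± 0.16 with young MSCs and stood at −0.16 under that scaling. No adaptor passed in any ECM or CM comparison in the main edgeR fit. GAB1 with young MSCs kept its call without each library in turn, and the adjusted p reached 0.097 for GAB1 with senescent MSCs, 0.0677 and 0.0768 for STAT3 and 0.183 for RASA1.

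Among 13 attenuators, SPRY2 changed in opposite directions on matrix and in co-culture. SPRY2, a Sprouty inhibitor of receptor kinase signalling, was at 56.5 ± 7.14 CPM in control, 107 ± 14.4 CPM on young ECM and 107 ± 13.3 CPM on senescent ECM, and at 34.0 ± 2.16 and 36.5 ± 2.58 CPM in young and senescent co-culture. It rose on the matrices (0.92 ± 0.18, adjusted p = 0.0264 and 0.0442). In co-culture it fell by 0.72 and 0.62 on the log2 scale (adjusted p = 0.00638 and 0.0143). Its call on senescent ECM was lost whichever of the 6 libraries was left out, and that on young ECM in 4 of 6 such fits. DUSP6, a phosphatase of ERK, rose on young ECM (0.89 ± 0.15, adjusted p = 0.0138) and in both co-cultures (1.16 ± 0.16 and 1.05 ± 0.16). SOCS3, an inhibitor of cytokine signalling, rose by 0.97 ± 0.22 in senescent co-culture. Set against CM, SPRY2 was higher on ECM by 1.40 ± 0.18 for young and 1.57 ± 0.18 for senescent MSCs, and DUSP6 by 1.12 ± 0.15 and 0.77 ± 0.15. SPRY4, another Sprouty gene, was higher on young ECM than in young CM by 1.38 ± 0.34. For senescent ECM against senescent CM, 4 listed genes rose and 1 fell, or 8 and 1 under a block for the replicate number. Without 1 library the adjusted p reached 0.204 and 0.275 for SPRY2 on young and senescent ECM against control, 0.113 for DUSP6 on young ECM, 0.0831 for SPRY2 and 0.116 for SOCS3 in senescent co-culture, 0.171 for SPRY4, and 0.0575 for DUSP6 between senescent ECM and CM; the other calls of SPRY2 and DUSP6 held.

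EGR1, a zinc-finger factor induced by growth factors, changed most among the 12 transcription factors. It was at 1.71 ± 0.77 CPM in control and 12.9 ± 2.07 and 15.7 ± 4.48 CPM in young and senescent co-culture, a rise of 2.91 ± 0.30 (adjusted p = 0.000156) and 3.20 ± 0.31 (adjusted p = 6.84e-05). On young ECM EGR1 rose by 1.83 ± 0.33 to 6.13 ± 1.72 CPM (adjusted p = 0.0165). It was higher on ECM than in CM by 2.42 ± 0.34 for young and 1.82 ± 0.33 for senescent MSCs, differences that stood at −0.88 and −0.28 with all replicates. With all replicates EGR1 stood at 0.08 on young ECM and at 0.31 and 0.97 in young and senescent co-culture, none past the threshold (adjusted p = 1.00, 0.895 and 1). HIF1A, the hypoxia factor, rose by 0.68 ± 0.14 and 0.62 ± 0.14 in the co-cultures and ERG, an endothelial ETS factor, by 0.85 ± 0.13 and 0.61 ± 0.13. Under endothelial marker scaling HIF1A stood at −0.08 and −0.24, and ERG at 0.12 and −0.22. The co-culture calls of EGR1, and of ERG with young MSCs, held without each library in turn; the adjusted p reached 0.132 for EGR1 on young ECM, 0.0524 and 0.0926 for HIF1A and 0.0808 for ERG with senescent MSCs.

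Genes whose log2 level ran closest to each member over the 21 libraries were picked among protein-coding genes with a mean of at least 5 CPM. The libraries share groups and scaling, so the Pearson r is a description. For PDGFB these were CABLES1 (r = 0.983), JUP (r = 0.979), the plakoglobin gene, and BTD (r = 0.975), the biotinidase gene. For PDGFA they were TSKU (r = 0.951), APLP1 (r = 0.945) and LDB1 (r = 0.945), for PDGFC DHX35 (r = 0.896), IDS (r = 0.893) and TNIK (r = 0.892), and for PDGFD ZNF254 (r = 0.952), DEPDC1B (r = 0.939) and ELF2 (r = 0.937). For PDGFRB they were COL6A1 (r = 0.931), COL6A2 (r = 0.927) and COL1A1 (r = 0.911), all collagen genes, and for PDGFRA AVPI1 (r = 0.917), TAGLN (r = 0.911) and COL6A2 (r = 0.892).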

How the data were processed

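Per the labels' protocols, poly(A) RNA was selected and the library kit marks strand. The submitters' processing notes list HISAT2 2.2.1, featureCounts 2.0.1 and the build GRCh38. Neither the strand setting of the counting nor the annotation it used is stated in the sources used here. The deposited table holds raw counts per gene for 60648 entries. Here 44 pseudoautosomal Y entries (109832 counts) were left out, and symbols came from a name table for 60462 entries. Members, the pathway list and the marker lists were chosen with earlier results of these data known. Other genes named are the up to 3 with the largest absolute log2 fold change among those called in each role and comparison, markers, and the 3 genes closest to each member. Column names gave each library's sample. Groups came from the labels.

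Replicates 2 to 4 were tested with edgeR 4.0.16 (R 4.3.3; filterByExpr with a minimum of 10 counts, TMM, quasi-likelihood F-test, 2-sided, Benjamini-Hochberg, threshold 0.05). A fit of 15 libraries (18015 genes) took in control, both ECM and both CM groups, and a fit of 9 libraries (17729 genes) took in control and both co-cultures; all 6 members passed the filter in both. Differences of differences used all 7 groups (21 libraries, 18492 genes). Levels are CPM with TMM over 27 libraries, log2 fold changes carry their SE, and per-length levels use GENCODE 29 exon lengths. Any pair of libraries from the same group differed beyond sampling noise (chi-square over its degrees of freedom at least 19.8), so none was treated as a repeat. The check cannot tell libraries of separate cultures from separate libraries of the same culture. The scripts were tested on simulated data. Alternatives were DESeq2 1.42.0, no filter, a replicate block, all replicates, other scalings and leaving out each library; the 7-group fit, the differences of differences and the pathway alternatives were added after seeing the data. Same-numbered libraries deviated together (every correlation of deviations over 0.1) in young ECM against control (0.465 to 0.669) and young CM against control (0.446 to 0.675). They also did in senescent ECM against senescent CM (0.282 to 0.491) and young co-culture against control (0.207 to 0.707). The labels do not state a pairing. The main fits had no block for the replicate number and so ignore this likeness, and values under a block are given as an alternative.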

Additional observations from a re-analysis of the deposited data

Results flagged for a closer look

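Among the 36 sets of a member and a group with 4 libraries, 13 had a library far from the other 3, by the gap to its nearest neighbour over the group's range; chance gives about 1 in 20. Of the 13, 12 were replicate 1. PDGFRA was highest in replicate 1 of the control (50.64 CPM), young ECM (67.26 CPM), senescent ECM (57.0 CPM), young CM (41.0 CPM) and senescent CM (37.06 CPM) groups. PDGFRB was highest in replicate 1 of the same groups, at 69.9, 44.65, 55.8, 105.4 and 110.2 CPM. The summed defining stromal genes were at 3338 to 7998 CPM in those 5 libraries and at 12.8 to 27.2 CPM in the other 15 of these groups; their part in the receptor values was not tested.

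PDGFC was lowest in replicate 1 of young co-culture, at 17.55 CPM against 67.96 CPM or more in the other 3. It was also lowest in replicate 1 of senescent ECM, at 53.73 CPM. PDGFA was highest in replicate 4 of young ECM, at 26.44 CPM, with the next library at 23.07 CPM.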

How the results depend on the processing

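The 19 member values that reversed and the gene counts that moved by over 1.5 times are given here, single libraries as ranges, each setting against the values from replicates 2 to 4; where no value shows it, the cause was not tested. Of the alternative values of single members, 266 kept their direction and side of the threshold, 16 fell below it, 13 passed it and 19 reversed. Depth limits the receptors most, at 21 to 149 counts per library for PDGFRA and 49 to 253 for PDGFRB.

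Counts of all genes called on young ECM, senescent ECM, young CM and senescent CM against control were 330, 225, 34 and 261 with DESeq2 and 363, 290, 109 and 284 with no filter on low counts. Between senescent and young MSCs they were 37 on ECM with no filter, 46 and 148 in CM with DESeq2 and no filter, and 151 and 249 in co-culture. Young ECM against young CM gave 1168 and 1208. With all replicates, in which replicate 1 carries stromal RNA, they were 1 and 0 on young and senescent ECM, 0 in senescent CM, 0 for senescent against young CM, 12 and 122 for young and senescent ECM against CM, 45 and 30 for young and senescent co-culture and 0 between the co-cultures. Scaling on endothelial markers gave 10993, 12749 and 34 in the 3 co-culture comparisons. Of the members, 1 was called on young and on senescent ECM with no filter, 1 in senescent CM with DESeq2 and with no filter, 2 between senescent ECM and CM with DESeq2, 1 between the co-cultures with DESeq2 and with no filter, and 0 with all replicates in young ECM against young CM and in either co-culture against control.

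With the replicate number as a replicate block, counts were 321 on young ECM, 200 on senescent ECM, 6 in young CM, 230 in senescent CM, 7 for senescent against young CM, 1287 for young ECM against young CM and 1428 for senescent ECM against senescent CM; 1 member was called in senescent CM (PDGFB, adjusted p = 0.0171) and 2 between senescent ECM and CM. No other member call changed under the block on replicates 2 to 4. Block and all replicates together gave 123 on senescent ECM, 0 for senescent against young CM, 52 and 26 for young and senescent co-culture and 0 between them, with 2 members called between senescent ECM and CM and 0 in either co-culture. Where not every correlation of deviations was over 0.1, fewer libraries lay closest to their own number. They were 3 of 6 for senescent ECM against control and 4 for senescent CM against control. They were 3 and 2 for senescent against young ECM and CM, and 4 for young ECM against young CM. For senescent co-culture they were 2 each against control and against young co-culture.

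Pathway genes called moved on young ECM against control from 4 to 8 with no filter, and on senescent ECM from 2 to 4 with DESeq2, 7 with no filter, 5 with all replicates and the block, and 1 under library total scaling. In CM they moved from 0 to 1 with no filter for young MSCs, and for senescent MSCs to 2 with DESeq2, 1 with no filter and 2 with the block. They moved from 0 to 1 and 2 with no filter between senescent and young ECM and CM. Young ECM against young CM went from 7 to 13 with DESeq2, 14 with no filter, 13 with the block and 0 with all replicates, and 4 to 18 without 1 library (highest without young ECM replicate 3). Senescent ECM against senescent CM went from 5 to 9 with no filter and with the block, 1 with all replicates and 10 with the block as well, and 3 to 6 without 1 library (lowest without senescent CM replicate 4). Both co-cultures against control gave 0 with all replicates, with or without the block, and 37 and 42 under endothelial scaling.

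Reversed values with all replicates were −0.59 for PDGFRB on young ECM against control and −1.17 against young CM, −0.88 and −0.28 for EGR1 between young and between senescent ECM and CM, and, in young co-culture, −3.64 for PDGFRA, −3.44 for PDGFRB, −0.31 for PDGFC, −5.35 for CSPG4 and −0.22 for HIF1A. In senescent co-culture they were −3.56 for PDGFRA, −2.65 for PDGFRB and −5.28 for CSPG4. With the block as well, young co-culture gave −0.49 for PDGFC, −0.04 for PDGFD, −0.17 for HIF1A and −0.21 for RASA1, and senescent co-culture −0.21 for PDGFC and −0.02 for PDGFD. Scaling on endothelial markers, which moves the median of all genes by −0.730 and −0.822, gave in young co-culture −0.21 for PDGFA, −0.70 for PDGFC, −0.46 for PDGFD, −0.08 for HIF1A, −0.16 for RASA1 and −0.09 for STAT3. In senescent co-culture it gave −0.33 for PDGFA, −0.75 for PDGFC, −0.71 for PDGFD, −0.22 for ERG, −0.24 for HIF1A and −0.19 for STAT3.

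Leaving out 1 library at a time, counts of all genes ranged from 27 to 131 on young ECM (lowest without control replicate 4), 12 to 36 on senescent ECM (control replicate 4), 0 to 2 in young CM, 22 to 74 in senescent CM (senescent CM replicate 4), 0 to 0 and 0 to 2 for senescent against young ECM and CM, 237 to 2140 for young ECM against young CM (highest without young ECM replicate 3), 411 to 658 for senescent ECM against senescent CM, 885 to 2339 for young co-culture (lowest without replicate 4 of that group), 782 to 2148 for senescent co-culture (lowest without its replicate 3) and 25 to 55 between the co-cultures. Members called ranged from 0 to 2 for young ECM against young CM, 2 to 4 for young co-culture and 3 to 4 for senescent co-culture; the other comparisons kept their number. PDGFC ranged from −0.02 to 0.10 in young co-culture and PDGFD from −0.01 to 0.34 in senescent co-culture.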
